A study of Mus musculus with 12 samples.

Results

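The 10 genes described here encode C-type lectin receptors of myeloid cells: Clec4e, Clec4d, Clec4n, Clec7a, Clec5a, Clec4a1, Clec4a2, Clec4a3, Clec12a and Clec10a. They were chosen by gene name from the 54532 genes of the deposited count table. Of that table, 13800 genes had enough counts for testing, and all 10 receptors were among them. The RNA came from macrophages grown out of mouse bone marrow in macrophage colony-stimulating factor (M-CSF, 50 ng/mL). The donors were male mice aged 8 weeks, of a genotype labelled Itga9-Lyz2-cHet or Itga9-Lyz2-cKO, written cHet and cKO below. Itga9 encodes the alpha9 chain of the integrin alpha9beta1, and Lyz2 is a myeloid gene whose locus is commonly used to drive Cre in macrophages and neutrophils. Both genotypes carry the Itga9-Lyz2 designation, so neither group is wild type. The strain is not given in the sources used here. Within each genotype the cells were either left unstimulated (control) or exposed for 2 hours to an agent labelled Pg (multiplicity of infection 1:20). This gave 4 groups of 3 libraries. No label states if libraries that share a group came from different animals or cultures. The p-values thus rest on library-to-library spread, part or all of which may be technical.

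The 12 libraries held 14527674 to 16793803 counts, and the 10 receptor genes together took 0.223% to 0.344% of them. Levels are given as CPM, library-size-scaled counts with each library size adjusted by the trimmed mean of M-values (TMM). Itga9 lay at 17.9 to 34.0 CPM in the cHet libraries and at 5.98 to 13.6 CPM in the cKO libraries, without overlap, and Lyz2 at 17630 to 22000 and 8746 to 10980 CPM. The macrophage genes Csf1r and Adgre1 had group means of 4285 to 4903 and 1273 to 1548 CPM, as the labelled cell type has them. Timd4, of the same list of 10 macrophage markers, had group means of 0.160 to 1.52 CPM. Over the libraries, a list of 12 neutrophil markers summed to 1048 to 1502 CPM, and 7 monocyte markers to 727 to 932 CPM. The largest single parts were Csf3r and F13a1, with group means of 404 to 420 and 489 to 618 CPM. Among the other neutrophil markers, Ngp had group means of 189 to 235 CPM, S100a9 of 169 to 223 CPM and Ly6g of 0.341 to 1.12 CPM. The part of neutrophils and monocytes in the receptor levels was not tested. A list of 10 stromal and fibroblast markers summed to 31.0 to 39.4 CPM in the cHet libraries and 2.31 to 5.57 CPM in the cKO libraries, with Lum at 0 throughout. Its part in the genotype differences given below was not tested. Within every group, the libraries also separated by the level of the integrin gene Itgax. The libraries cHet control 1, cHet Pg 2 and 3, cKO control 1 and cKO Pg 1 and 2 had 103 to 137 CPM of Itgax, and the other 6 libraries had 36.2 to 59.3 CPM. In each genotype, 1 of 3 control libraries and 2 of 3 Pg libraries were thus on the higher side, and several receptor results are given below with this difference taken into account.

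C-type lectin receptors are surface proteins that bind sugars, glycolipids and products of damaged cells, and macrophages use them to sense fungi, mycobacteria and other microbes. Mincle (Clec4e), MCL (Clec4d) and Dectin-2 (Clec4n) signal through the adaptor FcRgamma, MDL-1 (Clec5a) through DAP12, and Dectin-1 (Clec7a) through a tyrosine motif of its own tail. These routes meet at the kinase Syk and the CARD9 complex, which leads to NF-kB and cytokine genes. DCIR1 (Clec4a2) and MICL (Clec12a) instead carry inhibitory tyrosine motifs that recruit phosphatases. Clec4a1 and Clec4a3 are further members of the DCIR family, and Clec10a encodes MGL1, a lectin for galactose-type sugars that is used as a marker of alternatively activated macrophages.

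All members but Clec10a lie on chromosome 6 of mm10. Clec4a1 (122921848 to 122934619, plus strand), Clec4a3 (122952515 to 122969875, plus), Clec4a2 (123106428 to 123143999, plus), Clec4n (123229843 to 123247021, plus), Clec4d (123262111 to 123275265, plus) and Clec4e (123281789 to 123289870, minus) share a segment of 368 kb, the Dectin-2 cluster. Clec12a (129342691 to 129365303, plus) and Clec7a (129461591 to 129472779, minus) lie in the Dectin-1 cluster of the same chromosome, and Clec5a (40574894 to 40585821, minus) stands alone. Clec10a lies on chromosome 11 (70156197 to 70170834, plus). The table annotates 9 of the 10 as protein-coding genes and Clec7a as a polymorphic pseudogene.

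The sequence before the transcription start is shown for Clec4e and Clec4d, the genes with the strongest response to Pg, and for Clec4a1, a gene of the same cluster whose response was small. Each is the 250 bases upstream of the RefSeq start (GRCm38.p6), written 5′ to 3′ on the strand of its gene: chr6:123289872-123290121 (minus) for Clec4e, chr6:123261857-123262106 (plus) for Clec4d and chr6:122921598-122921847 (plus) for Clec4a1. Capitals mark matches, on either strand, to 4 letter patterns of factors active in macrophages: TTGCNNAA for C/EBP, GGGNNNNNCC for kappaB, TGANTCA for AP-1 and GAGGAA for PU.1.
Clec4e: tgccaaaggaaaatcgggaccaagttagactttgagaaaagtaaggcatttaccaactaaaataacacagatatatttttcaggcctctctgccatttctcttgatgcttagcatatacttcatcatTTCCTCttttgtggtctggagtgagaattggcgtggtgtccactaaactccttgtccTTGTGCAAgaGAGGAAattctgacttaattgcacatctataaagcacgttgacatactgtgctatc
Clec4d: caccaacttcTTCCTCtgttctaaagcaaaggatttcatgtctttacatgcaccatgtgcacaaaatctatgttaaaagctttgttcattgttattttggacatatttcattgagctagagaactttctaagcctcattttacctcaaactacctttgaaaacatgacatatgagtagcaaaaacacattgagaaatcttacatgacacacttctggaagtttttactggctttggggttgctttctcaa
Clec4a1: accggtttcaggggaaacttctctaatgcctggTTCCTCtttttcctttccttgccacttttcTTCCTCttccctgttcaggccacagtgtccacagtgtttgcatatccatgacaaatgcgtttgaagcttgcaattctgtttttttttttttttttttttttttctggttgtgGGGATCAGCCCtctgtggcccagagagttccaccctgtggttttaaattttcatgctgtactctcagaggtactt

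The Clec4e window held 1 C/EBP pattern, 66 to 59 bases before the start, and 2 PU.1 patterns, 1 of them 56 to 51 bases before the start. The Clec4d window held 1 PU.1 pattern and the Clec4a1 window held 2, together with kappaB patterns on both strands that overlap each other. No AP-1 pattern was found in the 3 windows. Of the members not shown, Clec12a held the C/EBP, AP-1 and PU.1 patterns in its window. Its change with Pg did not pass in either genotype under TMM scaling. All 250 bases of that window lie in annotated exons of Clec12a. Among 32851 RefSeq promoter windows of this length, 9.56% held the C/EBP pattern, 45.8% the kappaB pattern, 6.75% the AP-1 pattern and 23.3% the PU.1 pattern. These matches describe letters and are not evidence of binding.

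RPKM divides CPM by the gene length of the deposited table, which covers the exons of all annotated transcripts of a gene. By this measure, the most abundant receptor in every group was Clec4d, at 286 ± 7.18 RPKM (SD, n = 3) in unstimulated cHet cells. Clec4a1 followed with 166 ± 9.78 RPKM, and Clec4e with 95.9 ± 9.94 RPKM. Clec7a (83.2 ± 26.5 RPKM) overlapped both Clec4e above it and Clec4a3 (72.4 ± 3.04 RPKM) below it. Clec10a (66.8 RPKM), Clec4n (55.9), Clec12a (43.5), Clec4a2 (20.6) and Clec5a (8.93) came next, and no neighbours among these overlapped in that group. Under Pg, Clec4e moved to the second place in cHet cells with 218 ± 29.4 RPKM, above Clec4a1 at 179 ± 6.81 RPKM. In cKO cells under Pg the libraries of Clec4e (241 ± 37.1 RPKM) and Clec4a1 (216 ± 9.25 RPKM) overlapped. Clec12a, Clec4a2 and Clec5a held the last 3 places in every group by RPKM. The order depends on the lengths, which were 1599 bases for Clec4d, 4965 for Clec4e and 5528 for Clec12a. In CPM, the mean of Clec4e was above that of Clec4d in every group. In cHet controls these means were 476 and 457 CPM, with overlapping libraries. Clec12a had 241 CPM there, above Clec4a3 at 96.0 and Clec4n at 79.4.

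**Figure D1:**
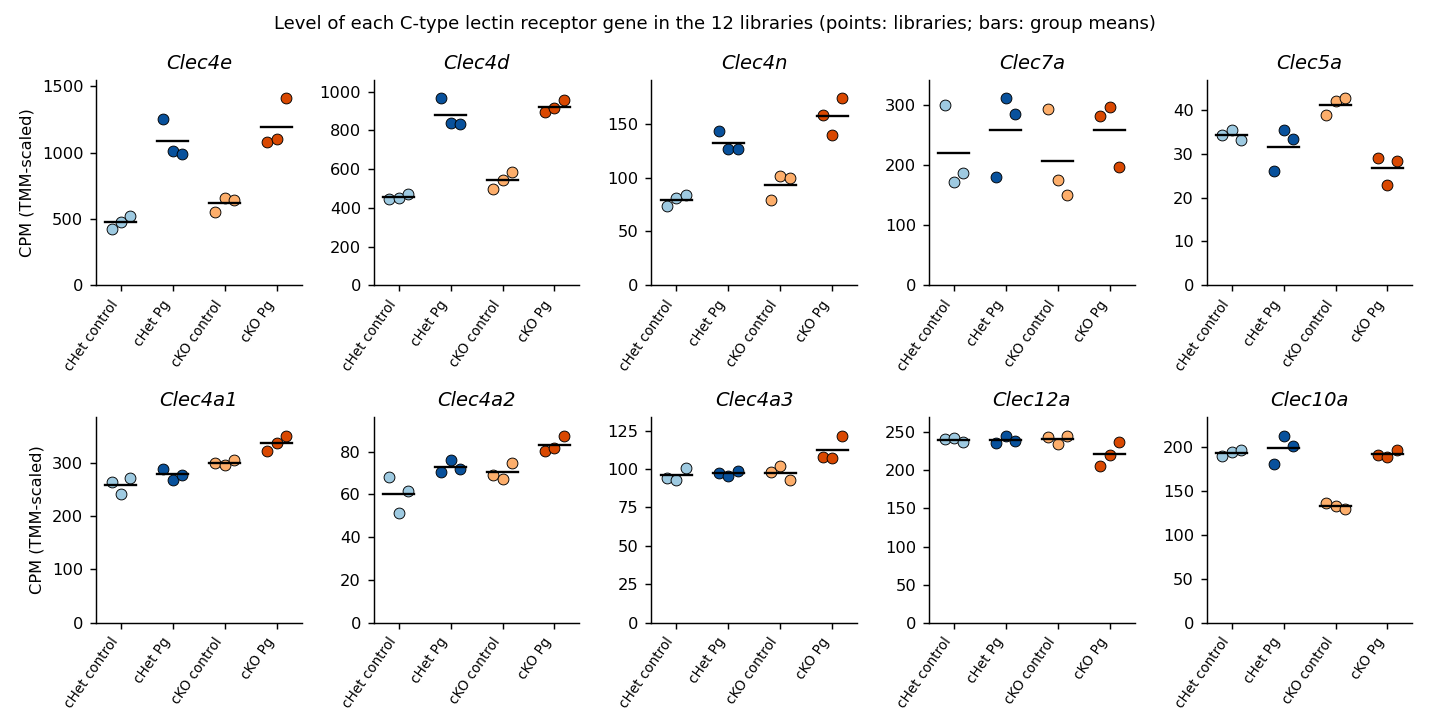
Level of each receptor gene in CPM (vertical axes start at 0) in the 12 libraries, by group; points are libraries and bars are group means. Clec4e, Clec4d and Clec4n were higher in every Pg library than in every control library, Clec10a was lower in the 3 cKO control libraries alone, and Clec7a was spread widely within each group.

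The first question was which receptor genes changed within 2 hours of Pg. In cHet macrophages 4 of the 10 rose and 0 fell at an adjusted p under 0.05 (edgeR), and the same counts, 4 and 0, were obtained at an unadjusted p under 0.05, with DESeq2 and with limma-voom. With library size alone in place of TMM scaling, 3 were higher and 4 lower. Under that scaling 19.2% of the calls over all genes were higher. With TMM scaling, 18% of all 13800 genes tested rose and 18% fell in this comparison. In cKO macrophages 7 of the 10 rose and 1 fell, against 16.9% and 17.1% of all genes tested. The median log2 change of the 10 receptors was 0.17 in cHet and 0.28 in cKO cells, while the median over all tested genes was close to 0 in both (-0.01 and 0.00 on the log2 scale). The rises were led by Clec4e, Clec4d and Clec4n, the 3 receptors that signal through FcRgamma.

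Clec4e, the receptor for mycobacterial cord factor, stood at 427, 475 and 526 CPM in the cHet control libraries and at 1252, 1012 and 989 CPM after Pg. In cKO cells its levels were 553, 655 and 645 CPM without and 1078, 1103 and 1409 CPM with Pg. All Pg libraries lay above all control libraries. The log2 change was 1.19 ± 0.12 (SE) in cHet cells, a 2.28-fold rise (edgeR, adjusted p = 8.82e-06), and 0.95 ± 0.12 in cKO cells, a 1.94-fold rise (adjusted p = 6.23e-05).

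Clec4d, which pairs with Mincle and supports its surface expression, also rose in both genotypes. Its cHet control libraries had 447, 453 and 469 CPM and its cHet Pg libraries 965, 840 and 833 CPM. The cKO control libraries had 497, 542 and 586 CPM and the cKO Pg libraries 894, 916 and 954 CPM. Control and Pg libraries did not overlap in either genotype. The change was 0.95 ± 0.07 on the log2 scale in cHet cells (1.93-fold, edgeR, adjusted p = 2.11e-08) and 0.77 ± 0.07 in cKO cells (1.70-fold, adjusted p = 2.80e-07).

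Clec4n, the receptor for fungal alpha-mannans, was the least abundant of these 3 and rose by a similar amount in both genotypes. It went from 73.4, 80.7 and 84.2 CPM to 143, 127 and 127 CPM in cHet cells, and from 79.0, 102 and 99.6 CPM to 158, 140 and 174 CPM in cKO cells. Again no Pg library fell within the range of the controls of its genotype. The log2 changes were 0.74 ± 0.10 (1.67-fold, edgeR, adjusted p = 3.39e-05) and 0.75 ± 0.10 (1.68-fold, adjusted p = 2.75e-05). These are bulk libraries, in which a changed number of cells of a type and changed RNA per cell cannot be told apart.

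**Figure D2:**
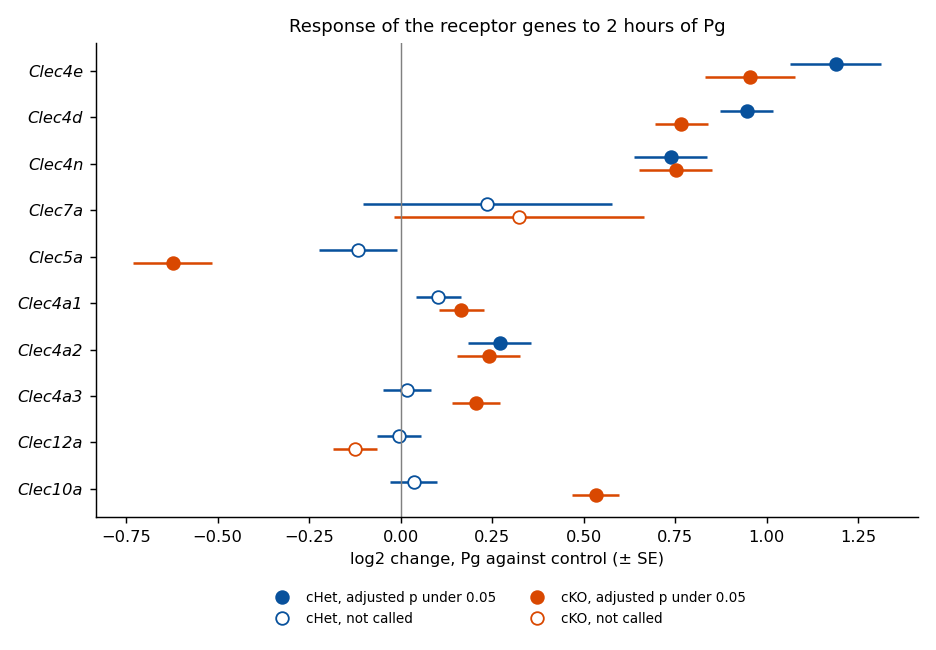
Log2 change of each receptor gene with Pg against control (horizontal axis, ± SE) in cHet (blue) and cKO (orange) macrophages; filled points have an adjusted p under 0.05 (edgeR). Clec4e, Clec4d and Clec4n lie between 0.74 and 1.19 in both genotypes, and Clec4a2 is also filled in both. Clec5a, Clec10a, Clec4a1 and Clec4a3 are filled in cKO cells alone. Of these, Clec10a alone passed the test of the difference between the responses.

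Along the 368 kb segment, the 3 strongly responding genes were neighbours at one end. In chromosomal order, the log2 changes in cHet cells were 0.10 ± 0.06 for Clec4a1, 0.02 ± 0.07 for Clec4a3 and 0.27 ± 0.09 for Clec4a2, then 0.74 for Clec4n, 0.95 for Clec4d and 1.19 for Clec4e. In cKO cells the same order gave 0.17 ± 0.06, 0.21 ± 0.07, 0.24 ± 0.09, 0.75, 0.77 and 0.95. The segment also holds the lectin genes Clec4a4, Clec4b1 and Clec4b2, which were tested but had at most 43 counts in any library and did not pass the test in either genotype. No test of position along the segment was made.

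**Figure D3:**
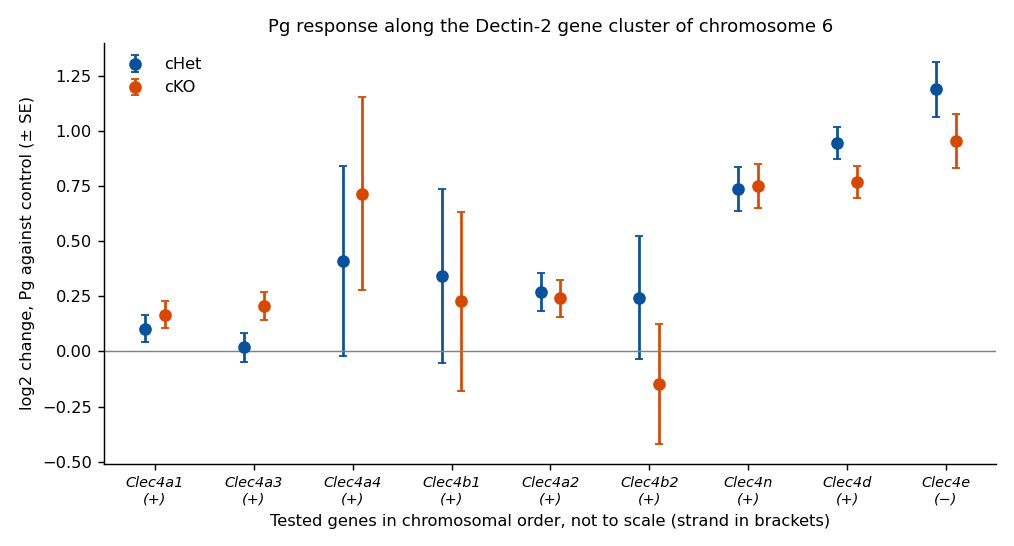
Log2 change with Pg (vertical axis, ± SE) of the 9 tested genes of the Dectin-2 cluster in chromosomal order (not to scale) in cHet (blue) and cKO (orange) cells. The genes from Clec4n to Clec4e lie at 0.74 or above in both genotypes, and the wide bars belong to the 3 genes with few counts.

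The receptors of the DCIR family with weaker responses depended more on how the libraries were scaled and on single libraries. Clec4a2, the inhibitory receptor DCIR1, had 68.1, 51.1 and 61.6 CPM in cHet controls and 70.5, 76.0 and 71.7 CPM after Pg. In cKO cells the values were 69.3, 67.4 and 74.6 CPM and then 80.5, 81.7 and 87.4 CPM. The groups did not overlap in either genotype, although the gap was narrow in cHet cells. The log2 changes were 0.27 ± 0.09 (edgeR, adjusted p = 0.0204) and 0.24 ± 0.09 (adjusted p = 0.0375). Leaving out cHet control 2 or cHet Pg 2 raised the first adjusted p to at most 0.123, and 5 of the 6 omissions in the cKO comparison ended the second call.

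Clec4a3 rose in cKO cells, from 97.8, 102 and 92.6 CPM to 108, 108 and 122 CPM, by 0.21 ± 0.07 on the log2 scale (edgeR, adjusted p = 0.0208). In cHet cells it lay at 94.3, 93.1 and 101 CPM without and 97.7, 95.2 and 98.7 CPM with Pg, overlapping ranges with a change of 0.02 (95% interval -0.13 to 0.17). Omitting cKO control 3 or cKO Pg 3 ended the cKO call, with an adjusted p of up to 0.117. Clec4a1 had a change of 0.17 ± 0.06 in cKO cells (edgeR, adjusted p = 0.0461), from 300, 296 and 305 CPM to 322, 337 and 351 CPM. The call was lost in 5 of the 6 fits that left out a library (adjusted p up to 0.146), and with the replicate number as a block (adjusted p = 0.0579). In cHet cells Clec4a1 stood at 263, 242 and 272 CPM and then at 289, 268 and 278 CPM, with a change of 0.10 (95% interval -0.04 to 0.24) that did not pass.

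These small rises also turned with the scaling. With library size alone in place of the trimmed mean, the median change of all genes moved by -0.24 on the log2 scale in both genotypes, and the share of calls that were higher fell from 50% to 19.2% in cHet and from 49.7% to 18.7% in cKO cells. Under that scaling the cKO changes were -0.08 for Clec4a1, -0.003 for Clec4a2 and -0.04 for Clec4a3, and the cHet changes were -0.23 for Clec4a3 and -0.21 for Clec10a. Clec4e, Clec4d and Clec4n stayed higher and past the threshold in both genotypes under every alternative tried, with log2 changes of at least 0.94, 0.70 and 0.49 in cHet and 0.71, 0.52 and 0.51 in cKO cells.

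Clec5a encodes MDL-1, a DAP12-coupled receptor best known for binding dengue virus and for its part in inflammatory arthritis. It was the scarcest member and the only one that fell. In cKO cells the controls had 39.0, 42.0 and 42.7 CPM and the Pg libraries 29.0, 22.8 and 28.4 CPM, without overlap. The change was -0.62 ± 0.11 on the log2 scale, a fold of 0.649 (edgeR, adjusted p = 2.22e-04). In cHet cells the controls had 34.2, 35.4 and 33.2 CPM and the Pg libraries 26.1, 35.4 and 33.4 CPM, which overlapped, and the change was -0.12 (95% interval -0.36 to 0.13, adjusted p = 0.435). The difference between the responses was -0.51 ± 0.15 (edgeR, adjusted p = 0.148). It passed without cHet Pg 1 (adjusted p = 0.0397) and in 0 of the other 11 fits that left out a library.

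Clec12a, the inhibitory receptor MICL that binds uric acid crystals, hardly varied under TMM scaling. Its group means were 241 ± 2.46 CPM in cHet controls, 240 ± 4.35 CPM with Pg, 241 ± 5.96 CPM in cKO controls and 221 ± 15.2 CPM in cKO cells with Pg (SD, n = 3). Its Pg change was 0.00 in cHet cells (95% interval -0.14 to 0.13) and -0.13 in cKO cells (95% interval -0.26 to 0.01, edgeR, adjusted p = 0.121). Without cKO Pg 3, the library with its highest value in that group, the latter change passed (adjusted p = 0.0393). This flat course depended on the scaling. With library size alone, Clec12a went from 258, 265 and 259 CPM to 214, 226 and 219 CPM in cHet cells. In cKO cells it went from 262, 259 and 268 CPM to 192, 202 and 217 CPM, and control and Pg libraries overlapped in neither genotype.

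The second question was whether the responses differed by genotype, and here Clec10a stood out among the members. It had 189, 195 and 197 CPM in cHet controls, 181, 213 and 201 CPM in cHet cells with Pg, 137, 133 and 130 CPM in cKO controls, and 191, 189 and 197 CPM in cKO cells with Pg. The 3 cKO control libraries were lower than the other 9, whose ranges overlapped. Pg raised Clec10a in cKO cells by 0.53 ± 0.06 on the log2 scale (1.45-fold, edgeR, adjusted p = 4.73e-06), and the change in cHet cells was 0.04 (95% interval -0.11 to 0.18, adjusted p = 0.706). The test of the difference between these responses gave 0.50 ± 0.09 (edgeR, adjusted p = 0.0121). Of the 10 receptors, 1 passed that test upward and 0 downward, against 0.457% and 0.261% of all genes tested. At an unadjusted p under 0.05 the counts were 1 and 1, the second being Clec5a, and DESeq2 and limma-voom each gave 1 and 0. Leaving out each of the 12 libraries in turn kept the difference between 0.44 and 0.55, and omitting cKO control 3 alone ended the call (adjusted p = 0.0516).

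Part of the Clec10a transcript is shared with its neighbour gene Mgl2. Of 3181 windows of 50 bases along the annotated Clec10a transcripts, 9.02% also occurred in another gene, and 270 of these 287 windows occurred in Mgl2. Mgl2 had 147 to 200 counts per library against 2132 to 3397 for Clec10a, and its change with Pg in cKO cells was 0.25 ± 0.14 (edgeR, adjusted p = 0.173). Of the windows of Clec4a2, 6.83% were shared, 114 of them with Clec4a4, which had 6 to 21 counts per library. The remaining members shared between 0% and 0.686% of their windows with another gene.

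Without Pg, cKO macrophages differed from cHet macrophages in Clec10a, which was lower by 0.54 on the log2 scale (-0.54 ± 0.06, a fold of 0.687, edgeR, adjusted p = 4.29e-05). It was the single receptor past the threshold in that comparison, with 0 higher and 1 lower, where 2.13% of all genes tested were higher and 3.02% were lower. At an unadjusted p under 0.05, 6 receptors were higher and 1 was lower. DESeq2 called 3 higher and 1 lower, and limma-voom 1 higher and 1 lower. The 3 called by DESeq2 were Clec4e (0.38 ± 0.12, edgeR, adjusted p = 0.109, DESeq2 0.0421), Clec4d (0.25 ± 0.07, edgeR, adjusted p = 0.0565, DESeq2 0.0305) and Clec4a1 (0.21 ± 0.06, edgeR, adjusted p = 0.0555, DESeq2 0.0178). For all 3, every cKO control library lay above every cHet control library. Clec4d (adjusted p = 0.0266) and Clec4n (adjusted p = 0.0422) passed when cKO control 1 was left out, and Clec4a2 when cHet control 1 was left out (adjusted p = 0.0359). Summed markers of conventional dendritic cells, a cell type that also expresses Clec10a, spanned 239 to 334 CPM in cHet controls and 233 to 333 CPM in cKO controls. Most of that sum was Wdfy4 and Itgax. Of the 9 tested genes of the list, 0 were higher and 1 was lower in cKO controls (edgeR, and the same by DESeq2, limma-voom and an unadjusted p under 0.05). That gene was Batf3, with group means of 5.15 CPM in cHet controls, 4.82 with Pg, 2.54 in cKO controls and 4.52 with Pg, and a difference in controls of -1.02 (adjusted p = 0.0124). Its part in the Clec10a difference was not tested.

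Under Pg the genotype difference of Clec10a was -0.04 (95% interval -0.19 to 0.10, adjusted p = 0.850). Clec4a1 was the receptor past the threshold there, higher in cKO cells by 0.27 ± 0.06 on the log2 scale (1.21-fold, edgeR, adjusted p = 0.0244), with no overlap between 289, 268 and 278 CPM in cHet and 322, 337 and 351 CPM in cKO libraries. That made 1 receptor higher and 0 lower, where 0.652% and 1.2% of all genes tested were higher and lower. At an unadjusted p under 0.05 the receptor counts were 4 and 1, and DESeq2 and limma-voom each gave 1 and 0. The Clec4a1 call was lost when cHet Pg 2, cHet Pg 3, cKO Pg 2 or cKO Pg 3 was left out (adjusted p up to 0.133).

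Averaged over both treatments, Clec4a1 was higher in cKO cells by 0.24 ± 0.04 on the log2 scale (edgeR, adjusted p = 0.00207) and held this call in all 12 fits that left out a library. Clec10a was lower by the same measure, at -0.29 ± 0.04 (adjusted p = 4.51e-04), a mean of the unequal differences given above. The average thus had 1 receptor higher and 1 lower, against 2.13% and 2.78% of all genes tested. Clec4a2 (0.21 ± 0.06, adjusted p = 0.0569), Clec4n (0.24 ± 0.07, adjusted p = 0.0640) and Clec4d (0.16 ± 0.05, adjusted p = 0.0938) did not pass. Without cHet Pg 1, Clec4e, Clec4d and Clec4n passed, making 5 receptors, and without cKO control 1 Clec4d and Clec4n did, making 4. Clec4a2 passed without cHet control 1 (adjusted p = 0.0106) and Clec4n also without cKO Pg 2. The genotype comparisons and the test of the difference between responses use the same libraries and are tied to each other by construction.

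**Figure D4:**
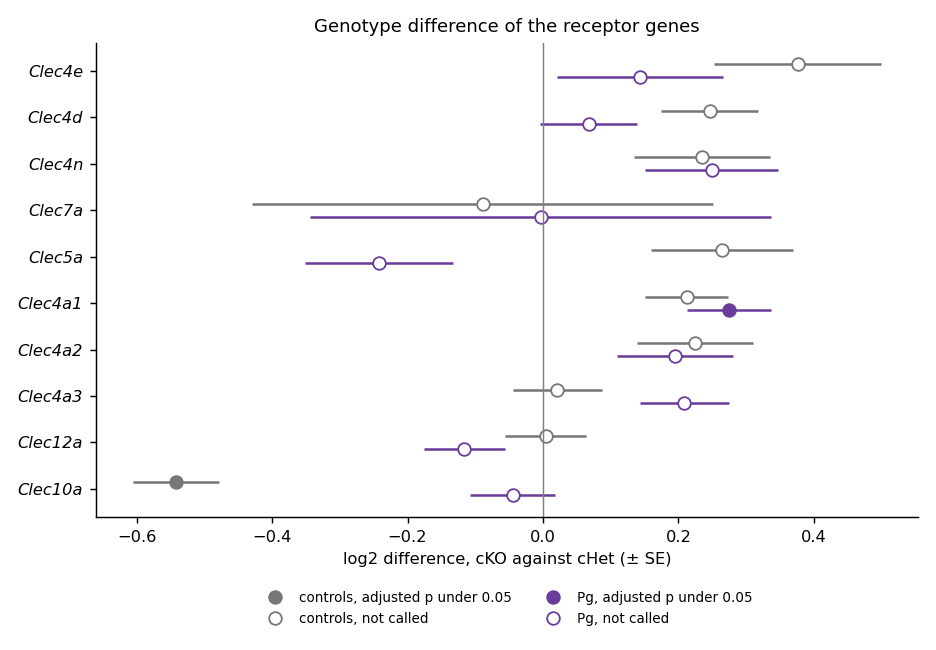
Log2 difference between cKO and cHet macrophages for each receptor gene (horizontal axis, ± SE), without Pg (grey) and with Pg (purple); filled points have an adjusted p under 0.05 (edgeR). Clec10a is filled at -0.54 without Pg and lies at -0.04 with Pg, and Clec4a1 is filled at 0.27 with Pg.

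Clec7a, the beta-glucan receptor Dectin-1, varied more within the groups than between them. Its levels were 300, 173 and 186 CPM in cHet controls, 181, 311 and 285 CPM in cHet cells with Pg, 293, 175 and 151 CPM in cKO controls, and 282, 297 and 197 CPM in cKO cells with Pg. The ranges of the 4 groups overlapped. The Pg change was 0.24 ± 0.34 in cHet (95% interval -0.55 to 1.02) and 0.32 ± 0.34 in cKO cells (95% interval -0.46 to 1.11), so changes of either sign lie within the intervals. The within-group SD of 0.42 on the log2 scale was at the percentile 98.7 of the 8392 genes whose mean log2 CPM reached 3. For the other members this SD lay between 0.05 (Clec12a) and 0.17 (Clec4e).

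The 6 libraries with more Clec7a, at 282 to 311 CPM, were the same 6 that had more Itgax, and the other 6 had 151 to 197 CPM. Over the deviations of the 12 libraries from their group means, the correlation of Clec7a was 0.98 with Itgax and 0.97 with Itga9 (Pearson's r, a description over libraries that share these groups). The genes most like Clec7a over the 12 libraries were Top2a (r = 0.98), the DNA topoisomerase of dividing cells, and Atp6v0d2 (r = 0.97), a proton pump subunit of osteoclasts and macrophages. A list of 8 osteoclast markers that includes Atp6v0d2 summed to 171 to 341 CPM in cHet controls and 262 to 449 CPM with Pg. In cKO cells it summed to 160 to 345 CPM in controls and 226 to 419 CPM with Pg. Its part in the Clec7a levels was not tested.

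**Figure D5:**
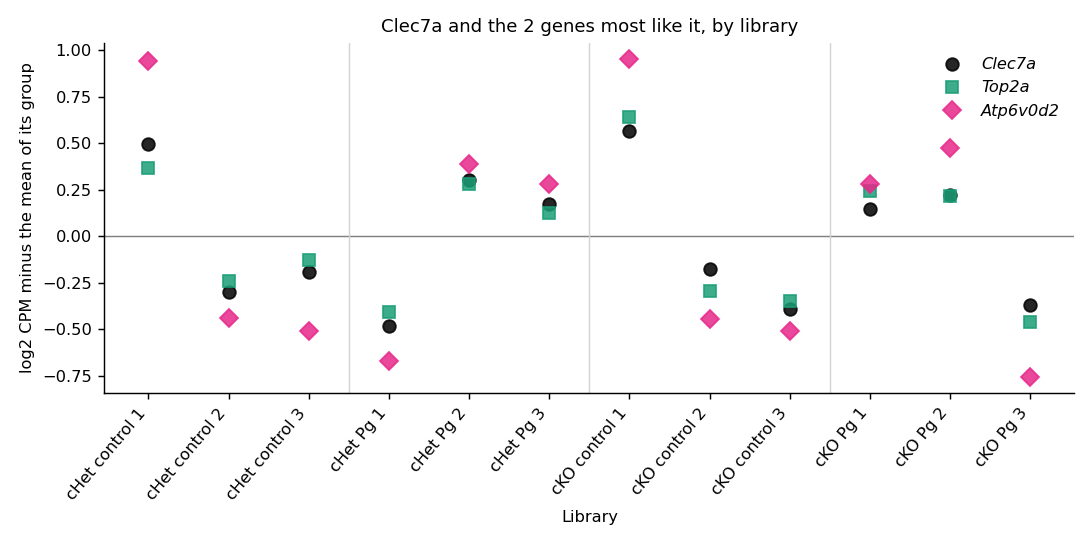
Log2 CPM of Clec7a, Top2a and Atp6v0d2 in each of the 12 libraries as the difference from the mean of its group (vertical axis). The 3 genes lie on the same side of 0 in every library, and Clec7a ranges from -0.48 in cHet Pg 1 to 0.57 in cKO control 1.

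The FcRgamma-coupled receptors varied the opposite way. Over the same deviations the correlation with Itgax was -0.91 for Clec4e, -0.92 for Clec4n and -0.77 for Clec4d, while it lay between -0.42 and 0.31 for the other members apart from Clec7a. The correlation between Clec4e and Clec7a was -0.88. Among the Pg libraries, Clec4e stood at 1252 CPM in cHet Pg 1 and 1409 CPM in cKO Pg 3, where Itgax was low, and at 989 to 1103 CPM in the 4 Pg libraries where it was high. The controls did the same, with 427 and 553 CPM in the first control library of each genotype, the lowest of its group.

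Because 2 of 3 Pg libraries but 1 of 3 control libraries had high Itgax, the edgeR fit was repeated with the log2 CPM of Itgax as a covariate, a choice made after seeing the data. Itgax is itself a measured level that could respond to Pg, so these values compare libraries at equal Itgax and do not replace those above. The Pg response of Clec4e was then 1.37 ± 0.06 in cHet and 1.03 ± 0.05 in cKO cells, that of Clec4d 1.02 ± 0.06 and 0.81 ± 0.05, and that of Clec4n 0.89 ± 0.06 and 0.83 ± 0.06. The Clec4e response was smaller in cKO than in cHet cells by this fit, with a difference of -0.33 ± 0.08 (edgeR, adjusted p = 0.00848), where the fit without the covariate gave -0.23 ± 0.17 (adjusted p = 0.654). In controls, Clec4e (0.42 ± 0.05, adjusted p = 1.90e-06), Clec4d (0.26 ± 0.05, adjusted p = 6.27e-04), Clec4n (0.26 ± 0.06, adjusted p = 0.00225) and Clec4a1 (0.22 ± 0.05, adjusted p = 0.00614) were higher in cKO cells. Clec7a turned from 0.24 to -0.23 ± 0.07 for Pg in cHet cells (adjusted p = 0.0118), and was 0.13 ± 0.06 in cKO cells (adjusted p = 0.0990). The difference between these Clec7a responses was 0.36 ± 0.09 (adjusted p = 0.0179), and its difference between cKO and cHet controls was -0.21 ± 0.06 (adjusted p = 0.0302). The Clec5a difference between responses passed at -0.50 ± 0.14 (adjusted p = 0.0404). Clec10a moved little, with -0.55 in controls and a difference between responses of 0.51 ± 0.08 (adjusted p = 1.64e-04).

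The genes whose levels most resembled the other members over the 12 libraries were sought among the same 8392 genes. Clec4e was most like Gm16091 and Mki67 (r = 0.99 for both), and over the deviations from group means these correlations were 0.95 and 0.98. Mki67, a gene of dividing cells like Top2a, thus went with Clec4e within groups while Top2a went with Clec7a, which ran opposite to Clec4e. Further, Clec4n was most like Gm16091 and Clec4e itself (r = 0.98 for both, and 0.80 and 0.85 over the deviations). Clec4d followed Npepps and Spred2 (r = 0.99 for both, and 0.85 and 0.63 over the deviations). Clec10a was most like Mxd1 (r = 0.96, and 0.865 over the deviations) and Irf1 (r = 0.95, and 0.48). Clec4a1 was most like Ifi27 (r = 0.97, and 0.77 over the deviations) and Vmp1 (r = 0.95, and 0.41). Clec12a, which varied least within groups, reached no more than 0.85 with Pdhx (0.60 over the deviations). Among the members, Clec4e, Clec4d and Clec4n had pairwise correlations of 0.97 to 0.99, and of 0.76 to 0.85 over the deviations.

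The proteins that carry receptor signals inwards were read from lists of genes chosen with earlier results known. The adaptor FcRgamma, encoded by Fcer1g, rose with Pg in cHet cells from 345 ± 13.6 to 419 ± 9.57 CPM (log2 change 0.28 ± 0.06, edgeR, adjusted p = 9.08e-04, and 0.04 with library size alone). In cKO cells it went from 367 ± 15.2 to 403 ± 2.05 CPM (0.13 ± 0.06, adjusted p = 0.0805, and -0.11 with library size alone). The difference between the responses of Fcer1g was -0.15 ± 0.08 (edgeR, adjusted p = 0.487) and did not pass. The DAP12 gene Tyrobp rose by 0.28 ± 0.06 in cHet cells (adjusted p = 0.00103, and 0.04 with library size alone), and its change in cKO cells was 0.01 ± 0.06 (adjusted p = 0.879), which with library size alone became a called -0.23 (adjusted p = 0.00327). The difference between the responses of Tyrobp was -0.27 ± 0.08 (adjusted p = 0.166) and did not pass. Syk, the kinase shared by the activating receptors, rose in both, by 0.44 ± 0.06 and 0.41 ± 0.06 on the log2 scale (adjusted p = 8.11e-06 and 1.75e-05), and by 0.19 and 0.17 with library size alone.

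Of the 21 adaptors and proximal kinases, all tested, 9 rose and 4 fell in cHet cells, and 4 rose and 4 fell in cKO cells, with median log2 changes of 0.17 and 0.01. Of all genes tested, 18% rose and 18% fell in cHet and 16.9% rose and 17.1% fell in cKO cells, and the cKO counts of this list were near those shares. With library size alone the split was 4 higher and 8 lower in cHet and 3 higher and 11 lower in cKO cells. Under that scaling most calls over all genes were lower, with 19.2% of them higher in cHet and 18.7% in cKO cells. The shares of all genes given above come from TMM scaling. Library-size counts here and for the lists below are thus not comparable with those shares. Pik3r1, a regulatory subunit of PI3-kinase, rose most clearly in both (0.96 and 1.21), and the Src-family kinase Lyn rose by 0.45 and 0.49. Src rose by 0.84 in cHet cells (adjusted p = 1.89e-06), and was lower in cKO than in cHet cells under Pg (-0.64, adjusted p = 6.02e-04).

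Of 20 tested genes of the CARD9 complex and the NF-kB arm, 9 rose and 5 fell in cHet cells and 8 rose and 3 fell in cKO cells (6 and 10, then 6 and 9, with library size alone), against the same 18% and 18%, and 16.9% and 17.1%, of all genes tested. Malt1, the protease partner of CARD9, rose by 1.70 and 1.56 on the log2 scale, Nfkb1 by 1.12 and 0.76 and Rel by 0.79 and 1.14. Card9 itself fell by 0.36 in cHet cells (edgeR, adjusted p = 0.00256), and its change in cKO cells was -0.15 ± 0.08 (adjusted p = 0.171). The difference between these responses was 0.20 ± 0.12 (edgeR, adjusted p = 0.517) and did not pass. With library size alone Card9 was lower in both genotypes, by -0.60 and -0.40 (edgeR, adjusted p = 1.88e-05 and 9.34e-04). Of 14 genes of the calcineurin and NFAT arm, 6 rose and 2 fell in cHet cells and 8 rose and 1 fell in cKO cells (2 and 4, then 4 and 4, with library size alone), led by Rcan1, a calcineurin inhibitor and NFAT target (3.11 and 3.01). Among 14 phosphatases and negative regulators, 6 rose and 2 fell in cHet cells and 7 rose and 3 fell in cKO cells (5 and 4, then 3 and 5, with library size alone). Ptpn6, which encodes SHP-1, the phosphatase recruited by DCIR1 and MICL, was among those that fell, by 0.39 and 0.40, while Tnfaip3 rose by 2.13 and 2.65. Several of the downward counts of these 3 lists, such as 3 of 20 and 2 of 14, were near or below the shares of all genes.

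Cytokine and enzyme genes downstream of Dectin-1, Dectin-2 and Mincle, which many other receptors also induce, moved far more than the receptors did. Of 19 tested, 17 rose and 0 fell in cHet cells (edgeR, and 0 fell also at an unadjusted p under 0.05, with DESeq2 and with limma-voom), and 15 rose and 1 fell in cKO cells, with medians of 2.42 and 3.12 on the log2 scale, where 18% of all genes tested rose and 18% fell in cHet and 16.9% and 17.1% in cKO cells. Il10 went from 5.32 ± 1.38 to 175 ± 1.55 CPM in cHet cells and from 3.40 ± 0.51 to 189 ± 8.81 CPM in cKO cells. Il1b went from 184 ± 14.3 to 1485 ± 66.6 CPM and from 124 ± 13.4 to 1525 ± 124 CPM. In controls, 1 of the 19 was higher and 6 were lower in cKO cells, with a median of -0.54, against 2.13% and 3.02% of all genes tested. Under Pg, where 0.652% and 1.2% of all genes were higher and lower, 0 were higher, by any of the 3 tools or unadjusted. By edgeR 2 were lower, Nos2 (-2.62) and Cxcl1 (-1.05). At an unadjusted p under 0.05, 4 were lower, while DESeq2 gave 4 and limma-voom 2. Of 19 transcription factor genes active at macrophage receptor genes, 11 rose and 4 fell in cHet cells and 12 rose and 2 fell in cKO cells (9 and 6, then 11 and 3, with library size alone). Cebpb rose by 1.05 and 1.33 on the log2 scale, and was lower in cKO than in cHet controls (-0.43, adjusted p = 0.0042).

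Among the other C-type lectin genes, 24 of 49 listed were tested. With Pg, 5 rose and 1 fell in cHet cells, and 5 rose and 2 fell in cKO cells, with medians of 0.19 and 0.24 (2 and 1, then 4 and 3, with library size alone). The upward counts were near the 18% and 16.9% of all genes tested that rose. Olr1, the receptor for oxidised lipoprotein, went from 14.4 to 34.6 CPM across the cHet controls to 140 to 220 CPM with Pg, and from 20.5 to 41.9 CPM to 159 to 222 CPM in cKO cells. Thbd, which encodes thrombomodulin, rose by 2.12 and 1.91 on the log2 scale, and Cd69, an early activation antigen, fell by 1.23 and 1.24. By genotype, where 2.13% and 3.02% of all genes were higher and lower, 0 were higher and 4 lower in cKO controls (Clec2i, Mrc2, Cd209f and Colec12, by edgeR). At an unadjusted p under 0.05, 1 was higher and 6 were lower. DESeq2 gave 1 and 4, and limma-voom 0 and 4. Under Pg, where 0.652% and 1.2% of all genes were higher and lower, 0 were higher, by any of the 3 tools or unadjusted. Each tool called 1 of the 24 lower, which by edgeR was Colec12 (-0.75, adjusted p = 0.0244). At an unadjusted p under 0.05, 8 of the 24 were lower. Mrc2 and Cd209f had group means under 1 CPM. The stromal markers described above fell with the same contrast, 6 of 7 tested in controls, with a median of -3.89.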

How the data were processed

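Poly-A RNA of the 12 macrophage libraries was sequenced, and unnormalised counts of reads per gene were deposited by the authors as a single table. The submitters' processing notes name fastp, HISAT2 (2.0.5), featureCounts (1.5.0-p3) and the mouse build mm10. How strand and multiply matching reads were handled, and which annotation release was used, is not given in the sources used here, so reads of overlapping or near-identical genes can be assigned to the wrong partner. Gene positions, lengths and biotypes come from the deposited table, where other columns carry annotation, and 0 per-sample columns were left unmapped.

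For testing, edgeR 4.0.16 was run in R 4.3.3. Genes were kept with filterByExpr, libraries were scaled by TMM, and 1 model with a mean per group was fitted to all 12 libraries with edgeR's quasi-likelihood test in its robust form. Benjamini-Hochberg adjustment covered all 13800 tested genes, with a threshold of 0.05, separately in 6 comparisons: Pg in each genotype, genotype without and with Pg, the mean genotype difference, and the difference between the Pg responses. SE is the log2 change over the square root of F, and 95% intervals use 8 residual degrees of freedom. RPKM uses the lengths of the table. Correlations use log2 CPM with a prior count of 2. The fit was tested on simulated data. DESeq2 1.42.0, limma-voom (limma 3.58.1), other scalings and filters, the replicate block and leaving out each library were alternatives.

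The 10 members and all gene lists were chosen with earlier results of these data known. From each list the text names up to 4 called genes with the smallest p, filled up by abundance. Fcer1g, Tyrobp, Card9, Ptpn6, Mgl2, Itgax, Wdfy4 and the genes named with low counts were named for their role or after their values were seen.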

Additional observations from a re-analysis of the deposited data

Results flagged for a closer look

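The Pg response differed between the genotypes in the test of the difference itself (edgeR, over all genes tested) for 1 receptor and 9 genes of the signalling lists. Over all genes tested, 0.457% passed upward and 0.261% downward. The upward and downward counts were 0 and 1 of 21 adaptors and kinases, and 2 and 1 of 14 negative regulators. They were 2 and 2 of 19 cytokine and enzyme genes, and 1 and 0 of 19 transcription factors. Both counts were 0 for the 20 genes of the CARD9 list and the 14 of the NFAT list. Clec10a had a difference, cKO minus cHet, of 0.50 on the log2 scale (0.04 in cHet, 0.53 in cKO cells). The phosphatase gene Dusp1 had 1.12 (2.57 and 3.69), Tnfaip3, which encodes the deubiquitinase A20, had 0.52 (2.13 and 2.65), and Junb had 0.60 (0.76 and 1.36). The cytokine genes Tnfsf9 and Il1b had 0.79 (2.86 and 3.66) and 0.61 (3.02 and 3.62). Without Pg, Dusp1 (-1.285), Tnfaip3 (-0.67), Junb (-0.63), Tnfsf9 (-0.94) and Il1b (-0.57) were all lower in cKO than in cHet controls on the log2 scale. Their group means with Pg in cHet and cKO cells were 1343 and 1199 CPM for Dusp1, and 2853 and 2572 CPM for Tnfaip3. For Junb they were 1265 and 1238 CPM, for Tnfsf9 464 and 418 CPM, and for Il1b 1485 and 1525 CPM. The kinase gene Src had -0.63 (0.84 and 0.21), and the ubiquitin ligase gene Cblb had -0.63 (0.06 and -0.57). The enzyme genes Nos2 and Acod1 had -2.50 (1.54 and -0.97) and -0.57 (0.43 and -0.14).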

How the results depend on the processing

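With library size alone, 7 receptors were called for Pg in cHet cells (3 higher, 4 lower), and 5 changes turned: Clec4a3 (-0.23) and Clec10a (-0.21) in cHet cells, and Clec4a1 (-0.0786), Clec4a2 (-0.00326) and Clec4a3 (-0.0389) in cKO cells. By the scaling's construction, all changes with Pg move down together. In controls, 3 receptors were called by genotype with library size alone, 4 with DESeq2, 2 with limma-voom, 5 without a filter on low counts and 2 with only the 2 groups compared, where edgeR with TMM called 1. Without the filter, 2 were called under Pg, 6 for the mean difference and 2 for the difference between responses, and 1101, 507, 1102 and 389 of all genes were called in the 4 genotype tests, in place of 711, 255, 677 and 99. DESeq2 called 262 genes for the difference between responses. With Itgax as a covariate, added after seeing the data, these 4 tests called 6, 3, 6 and 4 receptors and 1701, 759, 1455 and 715 genes, and Clec7a turned to -0.23 for Pg in cHet cells. The causes of these changes in number were not tested.

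Leaving out 1 library at a time gave 3 to 4 receptors and 4102 to 4689 genes for Pg in cHet cells, and 6 to 7 receptors and 3838 to 4460 genes in cKO cells. It gave 1 to 3 receptors and 319 to 591 genes by genotype in controls, 0 to 1 and 153 to 259 under Pg, 2 to 5 and 499 to 715 for the mean, and 0 to 2 and 42 to 207 for the difference between responses. The lowest counts of all genes came without cKO control 3 (319 in controls, 42 for the difference between responses), without cKO Pg 2 (153 under Pg) and without cHet control 3 (42), and the highest for the difference between responses came without cKO Pg 3 (207).

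Replicate numbers are shared by the groups, but same-numbered libraries did not in general deviate together more than others. The correlation of their deviations was -0.29 to 0.32 (median -0.04), and above 0.1 in 5 of 18 pairs. For differently numbered libraries it was -0.23 to 0.28 (median -0.02), and above 0.1 in 15 of 36 pairs. The highest value, 0.32, was that of a same-numbered pair, cHet control 1 and cKO control 1. With the replicate block, 4 receptors were called for Pg in cHet and 7 in cKO cells, where Clec4a1 no longer passed (adjusted p = 0.0579), and the other receptor calls were kept. All genes called numbered 4723 and 4448 for Pg and 70 for the difference between responses.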
